A study of Homo sapiens with 8 samples.

Results

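EDIL3, NEGR1, MFAP5, PXYLP1, GATM, PANK3, FAM216A, ATP9A and GAS6 are 9 of the 8961 genes that were measured in BOKU and SKG-I, both human cervical cancer lines, after knockdown of IGF2R, the receptor for insulin-like growth factor 2 and for proteins tagged with mannose 6-phosphate. The 9 genes were chosen by their signals on these same arrays, for being higher with siIGF2R than with siCtrl in both lines, so their differences between the siRNAs are given as a description, without a test. Both lines were transfected by lipofection with a control siRNA (siCtrl) or with an siRNA against IGF2R (siIGF2R), were grown in Ham's F12 medium with serum, and were lysed 72 h later, and no untransfected cells were analysed here. The knockdown was transient, and the sources used here do not name which siRNA against IGF2R was put on the arrays. There are 8 arrays but only 4 RNA samples, 1 for each combination of line and siRNA, because every sample was put on 2 GeneChip arrays. The arrays of an RNA sample show technical spread only, and the number of RNA samples limits the precision.

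Values are either MAS5 signals, the linear intensities that the authors obtained from the probe pairs of a probe set, or differences of log2 signals (siIGF2R minus siCtrl, with the duplicate arrays averaged). A probe set counts as measured where some array gave it 500 or more. A gene is represented by its measured probe set of highest mean signal unless another one is named, and signals of different probe sets are not comparable as levels. The standard deviation of the log2 difference between duplicate arrays was 0.27 to 0.35 over all measured probe sets. The knockdown was present in both lines, where the IGF2R signal with siIGF2R was 9.19% of that with siCtrl in BOKU and 6.92% in SKG-I. The epithelial marker list (8 genes, with strong signals of the keratins KRT8 and KRT18) had a lower sum with siIGF2R, without overlap, at 48340 to 56740 against 59130 to 61760 in BOKU and 52370 to 53230 against 65420 to 65940 in SKG-I. The sum is led by its brightest probe sets. It also holds CDKN2A, at 10132 and 12346 with siIGF2R against 14015 and 13948 with siCtrl in BOKU. In SKG-I CDKN2A gave 6727 and 7267 against 10342 and 10863. The bright keratin KRT7 of this list went the other way in BOKU, at 6812 and 7704 with siIGF2R against 3520 and 4049 with siCtrl. Its log2 change there was 0.94, beside -0.03 for SKG-I. KRT7 did not pass limma over both lines (adjusted p = 0.275). In SKG-I the keratin KRT19 had a log2 change of -1.87 and CDH1 one of 2.01, and neither passed limma over both lines (adjusted p = 0.164 and 0.957). The part of these markers in the results was not tested. The epithelial adhesion genes EPCAM and CDH1 reached no more than 50.8 and 3.15 in BOKU, and the basal keratin KRT5 no more than 45.9 in either line.

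The 9 genes belong to different processes. EDIL3 and GAS6 are secreted proteins that bind phosphatidylserine-exposing membranes and cell surface receptors, integrins for EDIL3 and the TAM receptor tyrosine kinases (TYRO3, AXL and MERTK) for GAS6. NEGR1 is a cell adhesion molecule of the IgLON family, held at the cell surface by a lipid anchor, and MFAP5 is a glycoprotein of the microfibrils that surround elastic fibres. PXYLP1 is a Golgi phosphatase that removes the phosphate from the xylose at the base of glycosaminoglycan chains, and ATP9A is a membrane ATPase of the phospholipid flippase family that acts in endosomal recycling. GATM catalyses the first step of creatine synthesis, and PANK3 the first step of coenzyme A synthesis. FAM216A has no role given here.

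The label under which these genes were grouped, the strongest raised genes, held for part of them at their main probe sets. When the 8961 measured genes were ordered by the smaller of their changes in BOKU and SKG-I, EDIL3 was at place 1, NEGR1 at 2, PXYLP1 at 7, FAM216A at 11 and GATM at 16. ATP9A was at place 137, MFAP5 at 173, PANK3 at 182 and GAS6 at 472. These places rest on 1 probe set a gene. At a second measured probe set the smaller change was 2.62 for PANK3 (main one 1.20) and 2.41 for MFAP5 (main one 1.22). These are near the 2.43 of FAM216A. GATM (2.63 against 2.27) and GAS6 (1.11 against 0.78) were also larger there, and NEGR1 (2.18 against 3.11) was smaller. The places also depend on signals close to the background. With signals under 100 set to 100, NEGR1 came to place 1, PXYLP1 to 2 and FAM216A to 5, while EDIL3 moved to place 17 and GATM to 162. ATP9A then stood at place 108, MFAP5 at 140, PANK3 at 147 and GAS6 at 422. No threshold was stated for the choice. GAS6, the lowest in this order, had a smaller change of 0.78, next to DENND2D with 0.78 above it and FARP2 with 0.78 below it. The median log2 change of the 9 genes was 2.27 in BOKU and 2.67 in SKG-I, beside 0.03 and -0.03 over all measured genes, which restates how the genes were chosen.

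Of the 9 genes, 8 were at least 2-fold higher with siIGF2R in both lines at their main probe set, beside 3.14% of all measured genes. Over all 27 probe sets that the platform annotation assigns to these genes alone, 14 were measured and 13 stayed under 500 on all 8 arrays. Of the 14 measured probe sets, 13 were at least 2-fold higher in both lines, beside 3.15% of all measured probe sets, and in all 14 both siIGF2R arrays were above both siCtrl arrays of the line, beside 26.4%. Since the genes were chosen on this difference, nothing is read from these counts. In addition, 9 of the 14 probe sets reached 500 only on siIGF2R arrays (8.11% of all measured probe sets did), so they could only enter as higher.

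**Figure D1:**
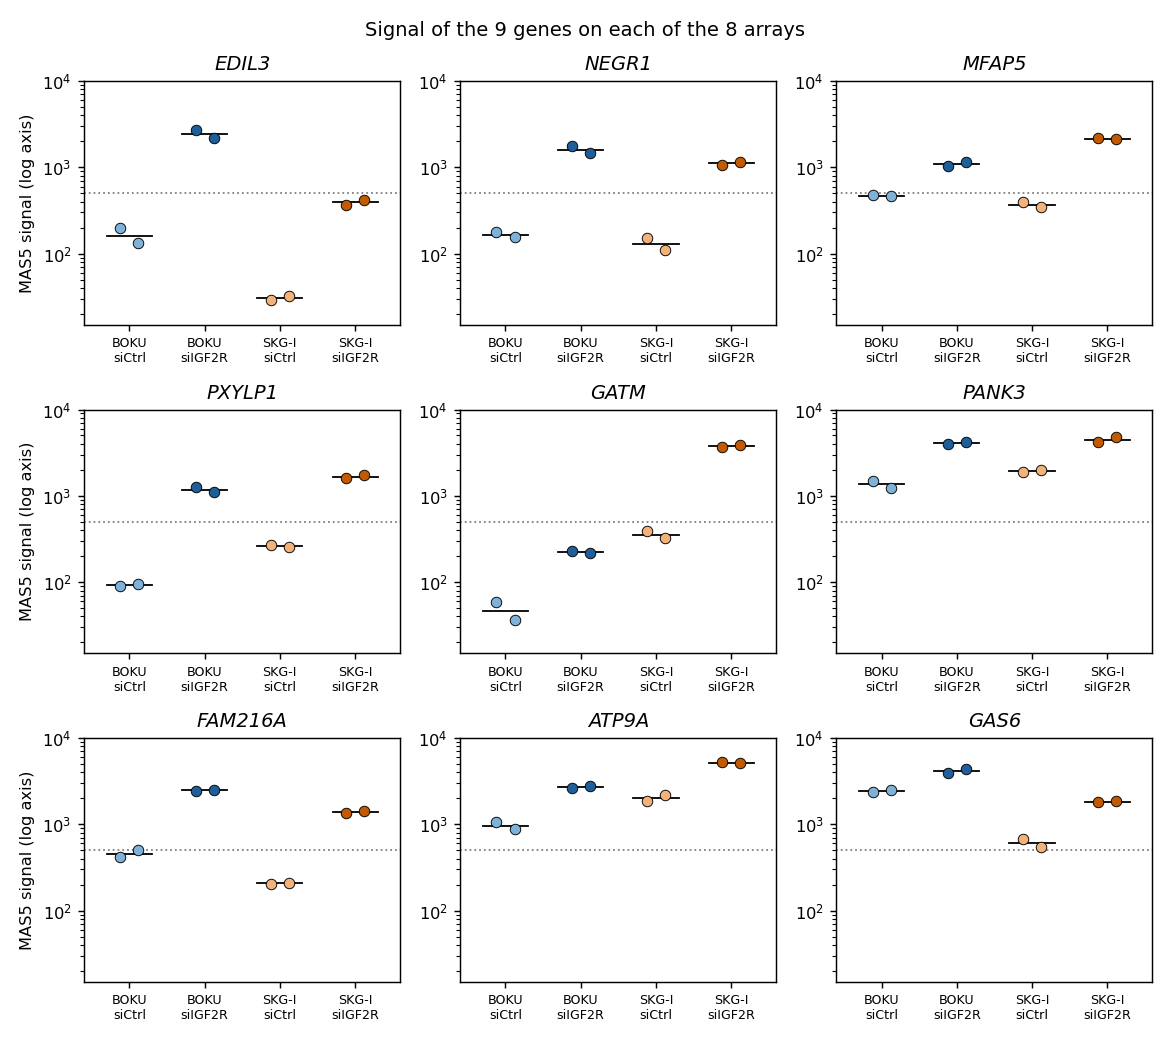
MAS5 signal (log axis) of the main probe set of each of the 9 genes on the 8 arrays; points are arrays, bars the geometric mean of the 2 arrays of an RNA sample, and the dotted line marks a signal of 500. In every panel both siIGF2R arrays lie above both siCtrl arrays of the same line, with EDIL3 far lower in SKG-I than in BOKU and GATM far lower in BOKU than in SKG-I.

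Among the secreted and surface proteins, EDIL3 was higher with siIGF2R in both lines, from siCtrl signals in SKG-I that were close to the background. In BOKU, EDIL3 gave 196 and 132 with siCtrl and 2685 and 2177 with siIGF2R, and in SKG-I it gave 29.0 and 32.2 against 370 and 422. The siIGF2R arrays were 15.1-fold higher in BOKU and 12.9-fold higher in SKG-I, but the highest SKG-I array stayed under 500. The size of this change depends on signals close to the background, since its mean log2 change of 3.80 became 2.95 when signals under 100 were set to 100, and 2.87 when 64 was added to every signal. With the former setting the change in SKG-I was 1.98 in place of 3.69, and EDIL3 no longer had the largest smaller change. The other probe sets of EDIL3 were under 500 on all arrays, and their changes were 1.86 and 0.81 at 1558643_s_at and 1.72 and 0.46 at 207379_at in BOKU and SKG-I. At 207379_at the SKG-I arrays of both siRNAs overlapped. At 1558643_s_at every SKG-I array was under 100, with geometric means of 35.7 for siCtrl and 62.6 for siIGF2R, so its change has little weight. EDIL3 in SKG-I therefore rests on 225275_at alone.

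NEGR1 had about the same signals in both lines. At 229461_x_at it gave 176 and 156 with siCtrl and 1750 and 1477 with siIGF2R in BOKU, and 152 and 109 against 1072 and 1162 in SKG-I. These are 9.70-fold and 8.65-fold differences, and the log2 change in SKG-I minus that in BOKU was -0.17. Probe sets with the ending x_at can bind several transcripts, but a second measured probe set without that ending, 243357_at, was 4.54-fold higher in BOKU and 5.00-fold higher in SKG-I. Of the others, 1553194_at, under 500 on all arrays, was higher on both siIGF2R arrays of each line as well. At 239548_at the BOKU arrays of both siRNAs overlapped.

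MFAP5 was higher with siIGF2R at all 3 of its probe sets and more so in SKG-I. Its main probe set, 209758_s_at, gave 483 and 460 with siCtrl and 1048 and 1158 with siIGF2R in BOKU, and 395 and 347 against 2192 and 2104 in SKG-I. The differences were 2.34-fold in BOKU and 5.80-fold in SKG-I. The dimmer probe set 213765_at had 5.30-fold and 14.0-fold differences, so the probe sets shared the direction and the order of the lines but not the size. The change in SKG-I exceeded that in BOKU by 1.31 at 209758_s_at and by 1.40 at 213765_at on the log2 scale. With 1 RNA sample per line and siRNA, this difference between the lines has no test.

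GAS6 had the smallest change of the group in BOKU. At 1598_g_at it gave 2373 and 2496 with siCtrl and 3953 and 4426 with siIGF2R in BOKU, and 679 and 540 against 1828 and 1839 in SKG-I. This was 1.72-fold in BOKU, below the 2-fold limit, and 3.03-fold in SKG-I. Its other probe set, 202177_at, had 2.17-fold and 3.48-fold differences. At 1598_g_at both siIGF2R arrays of SKG-I lay below both siCtrl arrays of BOKU, and at 202177_at these arrays overlapped.

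Of the Golgi and membrane transport genes, PXYLP1 changed most in BOKU. It gave 89.8 and 95.0 with siCtrl and 1257 and 1103 with siIGF2R in BOKU, and 272 and 252 against 1609 and 1725 in SKG-I. The differences were 12.8-fold and 6.35-fold, and its other probe set, 239475_at, stayed under 500 with overlapping arrays in both lines. ATP9A gave 1059 and 874 with siCtrl and 2628 and 2788 with siIGF2R in BOKU, and 1862 and 2196 against 5274 and 5097 in SKG-I. Its differences were 2.81-fold and 2.56-fold. The second probe set of ATP9A, 216129_at, was under 500 on all arrays and was not higher with siIGF2R, with log2 changes of 0.01 in BOKU and -0.62 in SKG-I.

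Of the metabolic enzymes, GATM was present mainly in SKG-I. At 216733_s_at it gave 59.4 and 36.5 with siCtrl and 231 and 218 with siIGF2R in BOKU, and 392 and 321 against 3650 and 3832 in SKG-I. The differences were 4.82-fold and 10.5-fold, but no BOKU array reached 500. The second measured probe set, 203178_at, had 6.19-fold and 10.7-fold differences. The mean change of GATM at 216733_s_at, 2.83, was 2.28 with signals under 100 set to 100, which left a change of 1.17 in place of 2.27 in BOKU. Its other 6 probe sets were under 500 on all arrays, and for 4 of them the change was at or below 0 in at least 1 line.

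PANK3 differed in size between its probe sets. The brighter one, 221751_at, gave 1504 and 1218 with siCtrl and 3991 and 4205 with siIGF2R in BOKU, and 1897 and 1983 against 4161 and 4801 in SKG-I, or 3.03-fold and 2.30-fold. At 218433_at the signals went from 149 and 171 to 1163 and 903 in BOKU and from 70.0 and 72.0 to 420 and 453 in SKG-I, or 6.40-fold and 6.14-fold. Both probe sets had the same direction in both lines, and the gene's mean log2 change was 1.40 at the brighter one and 2.02 averaged over both. FAM216A has 1 probe set, so no second one bears on it. It gave 413 and 508 with siCtrl and 2460 and 2480 with siIGF2R in BOKU, and 202 and 211 against 1356 and 1414 in SKG-I, which are 5.40-fold and 6.71-fold differences.

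**Figure D2:**
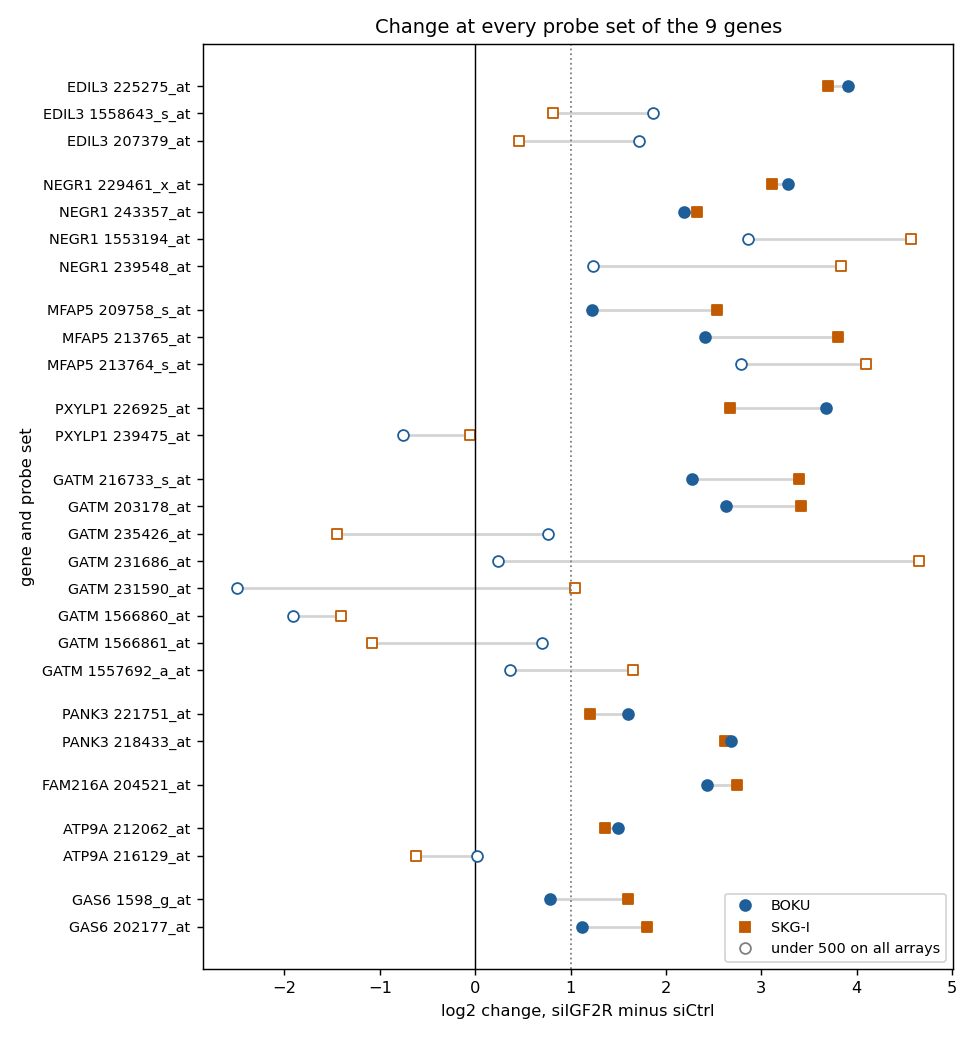
Log2 change (siIGF2R minus siCtrl, duplicate arrays averaged) at each of the 27 probe sets of the 9 genes in BOKU (circles) and SKG-I (squares); open symbols are the 13 probe sets under 500 on all arrays, and the dotted line marks 2-fold. The filled symbols all lie above 0, and the 6 probe sets at or below 0 in a line are all open and belong to PXYLP1, GATM and ATP9A.

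The probe sets that went against their gene were dim. All 14 measured probe sets had a positive change in each line, with GAS6 at 1598_g_at the lowest at 0.78 in BOKU. Of the 13 dim ones, 3 were at least 2-fold higher in both lines, namely 1553194_at and 239548_at of NEGR1 and 213764_s_at of MFAP5. Signals of single arrays in this range went down to 1, and duplicate arrays differed by up to 4.70 on the log2 scale (1566860_at of GATM), so that changes there have little weight.

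The share of the change in each line differed among the genes. The change was larger in BOKU for 5 genes (EDIL3, NEGR1, PXYLP1, PANK3 and ATP9A) and larger in SKG-I for 4 (MFAP5, GATM, FAM216A and GAS6). With the signals as deposited, PXYLP1 lay farthest toward BOKU, with changes of 3.67 and 2.67, and MFAP5 farthest toward SKG-I, with 1.22 and 2.54. The change in SKG-I minus that in BOKU was then smallest in size for ATP9A (-0.13), NEGR1 (-0.17) and EDIL3 (-0.22). This order rests partly on signals close to the background. When signals under 100 were set to 100, EDIL3 lay farthest toward BOKU (3.91 there, 1.98 in SKG-I), past PXYLP1 (3.56 against 2.67). GATM then lay farthest toward SKG-I (3.40 there, 1.17 in BOKU), past MFAP5, whose changes stayed the same. The small difference of EDIL3 between the lines was therefore not kept.

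**Figure D3:**
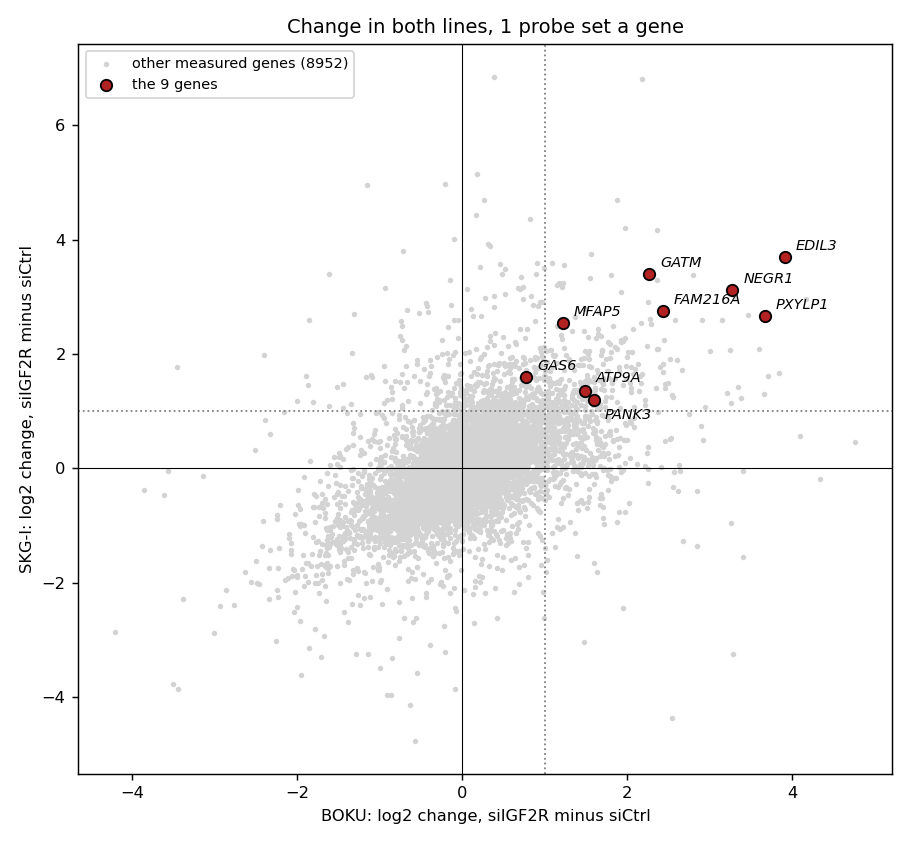
Log2 change (siIGF2R minus siCtrl) in BOKU against that in SKG-I for the 8961 measured genes, 1 probe set a gene, with the 9 genes in red and dotted lines at 2-fold. EDIL3 (3.91 and 3.69) lies at the upper right edge of the cloud, while ATP9A, PANK3 and GAS6 lie among many other genes.

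The levels of these genes also differed between the lines. Of the 9 genes, 6 had at least 2-fold different siCtrl signals in BOKU and SKG-I, beside 34.5% of all measured genes, and with siIGF2R 3 did, beside 28.4%. There is 1 RNA sample per line, so these are differences between samples with no test. With signals under 100 set to 100, the siCtrl count was 5, since EDIL3 in SKG-I and GATM in BOKU were under 100 with siCtrl and their folds came to 1.61 and 3.55. EDIL3 was 5.26-fold, GAS6 4.02-fold and FAM216A 2.22-fold higher in BOKU with siCtrl, and GATM 7.62-fold, PXYLP1 2.84-fold and ATP9A 2.10-fold higher in SKG-I. With siIGF2R the order of the lines was kept for these 6 genes, at 6.12-fold for EDIL3, 2.28-fold for GAS6 and 1.78-fold for FAM216A in favour of BOKU and at 16.7-fold for GATM, 1.41-fold for PXYLP1 and 1.92-fold for ATP9A in favour of SKG-I. For MFAP5 the order turned, from 1.27-fold higher in BOKU with siCtrl to 1.95-fold higher in SKG-I with siIGF2R. NEGR1 and PANK3 differed by less than 1.5-fold between the lines with either siRNA at their main probe sets. The probe sets of PANK3 did not share the order of the lines. Its main one was 1.43-fold (siCtrl) and 1.09-fold (siIGF2R) higher in SKG-I. At 218433_at PANK3 was 2.25-fold and 2.35-fold higher in BOKU. The second measured probe set of NEGR1, 243357_at, was 1.56-fold higher in BOKU with siCtrl and 1.42-fold with siIGF2R.

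Since EDIL3, MFAP5 and GAS6 are also made by fibroblasts, the fibroblast marker list (10 genes) was read beside them. Its summed signal was lower with siIGF2R than with siCtrl, at 22000 to 26900 against 27030 to 28470 in BOKU and 6152 to 6393 against 8135 to 8150 in SKG-I. The sums came mostly from POSTN in BOKU and from COL1A1 and COL3A1 in SKG-I, while DCN, LUM, PDGFRA and COL1A2 did not reach 500 on any array. In BOKU the POSTN arrays overlapped, at 25345 and 26869 with siCtrl against 20198 and 25414 with siIGF2R, and so did those of COL1A1. The BOKU sums therefore show no clear difference for the list. None of the 5 endothelial and 5 immune markers reached 500.

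The upstream sequences of the genes were compared because the genes were higher together. The RefSeq promoter table (GRCh38.p14) held 7 of the 9 genes, without NEGR1 and MFAP5. The 250 bases before the start site are shown for EDIL3 (chr5:84384881-84385130, minus strand, the outer of its 2 start sites), PXYLP1 (chr3:141231575-141231824, plus strand) and FAM216A (chr12:110468595-110468844, plus strand), the listed genes with the largest smaller change. Capitals mark GC boxes, the letters GGGCGG on either strand.
EDIL3: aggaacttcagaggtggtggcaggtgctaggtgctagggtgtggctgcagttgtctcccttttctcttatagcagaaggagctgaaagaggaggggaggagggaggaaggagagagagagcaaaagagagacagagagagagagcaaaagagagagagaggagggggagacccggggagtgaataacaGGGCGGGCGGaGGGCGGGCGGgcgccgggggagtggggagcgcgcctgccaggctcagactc
PXYLP1: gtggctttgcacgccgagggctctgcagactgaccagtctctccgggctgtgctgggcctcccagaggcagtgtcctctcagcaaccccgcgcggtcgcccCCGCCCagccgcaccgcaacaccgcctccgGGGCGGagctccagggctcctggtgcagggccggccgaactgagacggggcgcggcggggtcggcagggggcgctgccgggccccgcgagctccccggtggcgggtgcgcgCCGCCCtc
FAM216A: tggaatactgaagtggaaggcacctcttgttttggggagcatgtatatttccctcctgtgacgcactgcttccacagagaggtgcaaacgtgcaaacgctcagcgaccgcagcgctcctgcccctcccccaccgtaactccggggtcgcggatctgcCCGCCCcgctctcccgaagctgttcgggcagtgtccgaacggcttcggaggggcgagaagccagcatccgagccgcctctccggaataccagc
All 7 genes had at least 1 GC box in this window, as did 42.6% of the 35116 windows in the table. In EDIL3 4 of them overlapped in 2 pairs, 42 to 62 bases before the start site. The cyclic AMP response element TGACGTCA was found in 0 of the 7 genes and in 1.65% of all windows. The AP-1 site TGANTCA (6.57% of all windows), the E-box CACGTG (6.34%) and the TATA box TATAAA (10.7%) were also found in none of the 7, and the CCAAT box CCAAT (32.0%) in GATM alone. Both strands were searched, and the motifs did not overlap one another in these windows other than GC boxes. The GC content of the windows ran from 61.2% for EDIL3 to 89.2% for ATP9A, beside a median of 58.0%. These are letter matches and show neither binding nor its absence.

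The genes differed in length as well. NEGR1 spans 887 kb, EDIL3 444 kb and ATP9A 172 kb in RefSeq, while PXYLP1 spans 63.1 kb and MFAP5 16.9 kb. The median was 43.5 kb for the 9 genes and 32.5 kb for the 8959 measured genes with a length.

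The pathways of these genes were followed through 7 lists of partner genes, which hold none of the 9. The lists were chosen with earlier results of these data known, so calls on them give no independent evidence. Here siIGF2R was compared with siCtrl by limma over the 4 RNA samples, with a term for line, so that the lines are the replicates (two-sided, p values adjusted over all 16517 measured probe sets). Of the 108 genes on the lists, 67 were measured, of which 3 rose and 2 fell. Over all measured genes, 2.59% rose and 2.35% fell. The balance depends on the scaling, since 363 probe sets rose and 346 fell as deposited, and 321 rose and 545 fell with each array scaled to its median, which moves every log2 change by -0.10 over both lines. At an unadjusted p under 0.05, 14.4% of all measured genes were higher and 13.9% lower, and 35.7% were higher in both lines whatever their p, which are the shares to read the counts below against. BOKU siCtrl array 1 and BOKU siIGF2R array 2 weigh on these counts, since without either of them 6 of the 67 rose and 4 fell.

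In the list of elastic microfibril genes, 2 of 13 measured genes rose and none fell, while 6 were higher and 1 was lower at an unadjusted p under 0.05, against 14.4% and 13.9% of all genes. The median log2 change was 0.65 in BOKU and 0.59 in SKG-I. LOX, the enzyme that cross-links elastin and collagen, rose at its brightest probe set by 2.53 (standard error 0.28, 2 lines, adjusted p = 0.0221 from limma), from 1419 to 11408 (BOKU) and 217 to 903 (SKG-I). Its other measured probe sets, 204298_s_at and 213640_s_at, were higher in BOKU and lower in SKG-I (log2 changes of 0.15 and 0.28 over both lines, adjusted p = 0.863 and 0.809 from limma). When the probe sets of LOX were averaged, its change was 0.99 (adjusted p = 0.228 from limma). FBN2, a fibrillin that forms microfibrils, rose by 1.35 (standard error 0.24, adjusted p = 0.0434 from limma), and lost the call without BOKU siCtrl array 2 (adjusted p = 0.0546 from limma), with measured probe sets from a signal of 250 (adjusted p = 0.0534) and with genes as units (adjusted p = 0.0559). LTBP2, a latent TGF-beta binding protein of the matrix, rose at its dimmer probe set 223690_at (log2 change 1.46, adjusted p = 0.0466 from limma) but did not pass at its main one (0.87, adjusted p = 0.0814). FBN1, the main fibrillin, had 0.42 and did not pass (adjusted p = 0.207 from limma).

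The list of IgLON and immunoglobulin-family adhesion genes had 5 measured genes, FGFR1, FGFR3, CADM1, ALCAM and L1CAM. Of these, 1 rose and 0 fell. At an unadjusted p under 0.05, 2 were higher and 0 lower, against 14.4% and 13.9% of all genes. Whether they bind NEGR1 was not tested. ALCAM, an immunoglobulin-family adhesion molecule, rose by 1.67 (standard error 0.18, adjusted p = 0.0221 from limma), from 4073 to 12606 (BOKU) and 485 to 1594 (SKG-I). Its other probe set rose by 1.95. ALCAM was also listed by the study as changed on these same arrays, and so gives no independent evidence. The other IgLON genes LSAMP, OPCML, NTM and IGLON5 did not reach 500 on any array, with highest signals of 27.3 to 77.1, so that NEGR1 was the measured IgLON gene.

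Limma called 0 of the 10 measured partners of EDIL3 and GAS6, of which 3 were higher and 1 lower at an unadjusted p under 0.05, against 14.4% and 13.9% of all genes. The TAM receptor AXL went from 16910 to 18162 (BOKU) and 4617 to 9695 (SKG-I) (log2 change 0.59, adjusted p = 0.184 from limma). Its other measured probe set, 202685_s_at, had changes of -0.17 in BOKU and 0.41 in SKG-I (0.12 over both lines, adjusted p = 0.79 from limma). TYRO3 had -0.26 (adjusted p = 0.515), and MERTK did not reach 500. The integrin subunit ITGAV, which binds EDIL3, had 0.01 (adjusted p = 0.972), and MFGE8, the closest relative of EDIL3, 0.89 (adjusted p = 0.161). The integrin subunit ITGB3 went from 4029 to 1879 in BOKU and from 5.69 to 17.7, near the background, in SKG-I. Its log2 change over both lines was 0.27 (adjusted p = 0.838 from limma).

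Of the 16 measured genes of the glycosaminoglycan linker and chain start, on whose product PXYLP1 acts, 0 rose and 1 fell, with 3 higher and 3 lower at an unadjusted p under 0.05, against 14.4% and 13.9% of all genes. EXTL2, a transferase that adds a sugar to the linker when its xylose carries a phosphate, fell by 1.57 on the log2 scale (standard error 0.20, adjusted p = 0.0256 from limma), from 1717 to 554 (BOKU) and 2955 to 1036 (SKG-I). EXT2, a subunit of the heparan sulfate polymerase, did not pass at its main probe set (-0.29, adjusted p = 0.370 from limma), whereas its other probe set 202013_s_at fell by 2.18 on the log2 scale (adjusted p = 0.0231). FAM20B, the kinase that adds the phosphate, had -0.43 and did not pass (adjusted p = 0.321 from limma). The flippase list holds relatives of ATP9A and also TMEM30A and MON2, which are not flippase ATPases. Of its 8 measured genes, 0 rose and 1 fell, with 1 higher and 1 lower at an unadjusted p under 0.05. ATP10D, a flippase of the plasma membrane, fell by 1.77 on the log2 scale (standard error 0.19, adjusted p = 0.0221 from limma), and ATP9B, the closest relative of ATP9A, had -0.45 (adjusted p = 0.388).

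Limma called 0 of 5 measured creatine genes, with 3 higher at an unadjusted p under 0.05, and all 5 were higher in both lines (35.7% of all measured genes were), which is a description of 5 genes. Creatine kinase CKB had 0.82 (adjusted p = 0.126 from limma) and GAMT, which follows GATM in creatine synthesis, 0.75 (adjusted p = 0.206). Limma also called 0 of 10 measured coenzyme A genes, with 2 higher and 1 lower at an unadjusted p under 0.05, near the shares over all genes. None of the other pantothenate kinases passed, with PANK2 at -0.81 (adjusted p = 0.0653 from limma), PANK1 at -0.43 (adjusted p = 0.272) and PANK4 at 0.13 (adjusted p = 0.765). PANK2 passed with median scaling of the arrays (adjusted p = 0.0469) and when BOKU siCtrl array 1 was left out (adjusted p = 0.0336) or BOKU siIGF2R array 2 was (adjusted p = 0.0370).

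**Figure D4:**
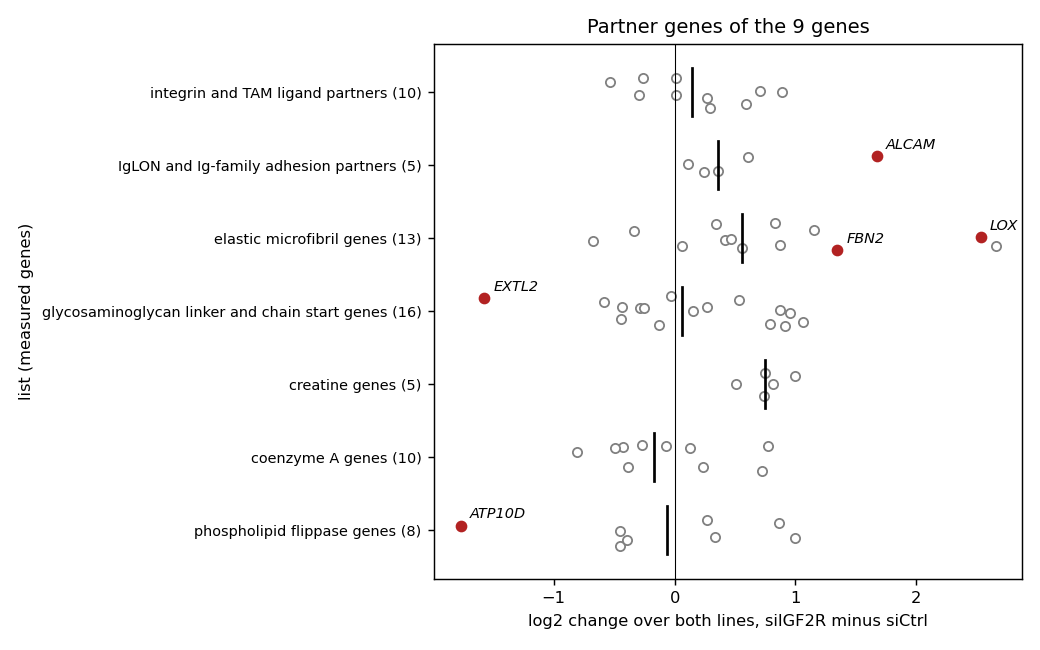
Log2 change over both lines (siIGF2R minus siCtrl) of the 67 measured partner genes in 7 lists, each with its count of measured genes; filled points have an adjusted p under 0.05 from limma and bars are list medians. ALCAM, FBN2 and LOX rose, and EXTL2 and ATP10D fell.

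The genes with the pattern most like EDIL3, NEGR1 and GAS6 were sought by the root mean square distance of log2 signals, centred on each probe set's mean, over the 8 arrays. The arrays share 4 RNA samples, so this describes shape only. For EDIL3 they were the phosphatase DUSP5 (distance 0.636), the fatty acid elongase ELOVL7 (0.744) and LOX (0.767), at the LOX probe set that its others did not follow. For NEGR1 they were the small GTPase RIT1 (0.519), ASPHD2 (0.527) and TOP1MT (0.557). GAS6 had closer neighbours, the homeobox gene SHOX2 (0.114), the adenylate kinase AK4 (0.137) and the sperm calcium channel gene CATSPER1 (0.141). SHOX2, like GAS6, changed by less than 1 in BOKU (0.72) and by more in SKG-I (1.47). Among the 9 genes themselves PANK3 and ATP9A were closest (0.356), followed by NEGR1 and FAM216A (0.467).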

How the data were processed

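Total RNA of BOKU and SKG-I was analysed on Affymetrix U133 Plus 2.0 GeneChips. The values the authors deposited are linear intensities, named as MAS5 signals in the submitters' processing notes. The deposited intensities have the same trimmed mean (500.1) on all 8 arrays and a lowest value of 1, so background subtraction, summary and scaling had been done before deposit and no further normalization was made. Small signals carry the error of background subtraction, which enlarges their log2 changes. Depth does not apply to arrays, and their number limits the precision.

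Gene names come from the platform annotation, updated through gene identifiers. Of 54675 probe sets, 62 controls were removed and 16517 reached 500 on at least 1 array (14544 with 1 gene, 765 with several, 1208 with none). Log2 signals of duplicates were averaged, since the study states that duplicates are the same total RNA. Partner genes were tested with limma 3.58.1 in R 4.3.3, with line as a block and a variance trend (1 residual degree of freedom plus 4.82 from all probe sets). The test was also run on simulated data with the same spread for every probe set, so that run cannot examine the variance trend. Nothing is read from it. Named were the 9 genes with their probe sets, IGF2R, called partners, genes next to the last of the 9 in the order, and the 3 genes most like EDIL3, NEGR1 and GAS6. Other partner genes and markers were named after their values had been seen. The members and lists were chosen with earlier results of these data known. Protein sequences were not used here.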

Additional observations from a re-analysis of the deposited data

Results flagged for a closer look

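At 2 probe sets of LOX, both siIGF2R arrays lay above both siCtrl arrays in BOKU and below them in SKG-I. The signals of 204298_s_at went from 2748 and 2975 to 6373 and 7017 in BOKU and from 501 and 480 to 278 and 244 in SKG-I, which are log2 changes of 1.23 and -0.92, a difference of -2.14 (SKG-I minus BOKU). Those of 213640_s_at had 1.36 and -0.79, a difference of -2.15, with signals of 39.1 to 99.1 in SKG-I. The brightest probe set of LOX, 215446_s_at, was higher in both lines. The difference between the lines was not tested, since each line has 1 RNA sample per siRNA, and why the probe sets differ was not tested either. None of the 27 probe sets of the 9 genes had such opposite changes without overlap.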

How the results depend on the processing

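None of the 9 genes changed the sign of its mean log2 change under any alternative, nor when an array was left out. The genes were chosen for this sign on these arrays, and a left-out array removes only a duplicate of the same RNA sample. The unchanged sign is therefore no independent support. The count of 13 measured probe sets at least 2-fold higher in both lines stayed within 1.5 times under all alternatives. It was 9 at a 3-fold threshold and 16 with no filter. Since the genes were chosen for this rise, the count gives no independent support either. The number of genes with 2-fold different siCtrl signals between lines, 6, was 3 at a 3-fold threshold. Over all probe sets, the 520 that were 2-fold higher in both lines became 1882 with no filter, 1431 at 1.5-fold, 135 at 3-fold and, with the methods' unpaired test over duplicate arrays added, 427 unadjusted and 125 after Benjamini-Hochberg adjustment.

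By limma 363 probe sets rose and 346 fell, or 241 and 256 after quantile normalization, 321 and 545 with median scaling and 655 and 575 with 64 added. With 1 array left out, 216 to 838 rose and 233 to 759 fell, and among partner genes 2 to 6 rose and 2 to 4 fell, in place of 3 and 2. Without the variance trend or without the cell line block, 0 probe sets rose and 0 fell by limma, and 0 and 0 partner genes (unadjusted p under 0.05: 2137 and 1728, and 21 and 5, without the trend, 306 and 319, and 1 and 2, without the block). Averaging the probe sets of a gene left 1 rising partner gene, ALCAM. Taking arrays as separate samples, which treats duplicates of 1 RNA sample as replicates, gave 4269 rising and 3833 falling probe sets and 27 and 15 partner genes. With the array number as a replicate block added, these were 3992, 3609, 27 and 13. The number only names duplicates of 1 RNA sample, so it pairs nothing. The cause of these differences was not tested.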
